A study of Mus musculus with 23 samples.

Results

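Trem2, its adaptors Tyrobp and Hcst, the signalling enzymes Syk, Plcg2 and Inpp5d, the opposing receptor Cd33 and the transcription factor Spi1 were followed across 4 genotypes in the mouse hippocampus. A gene was taken where its name in the count table matched 1 of these 8 names, which gave 8 of 37173 genes, and all 8 were among the 19423 genes with enough reads to be tested. RNA was drawn from both hippocampi of each of 23 mice aged about 5 months, with 1 poly-A library per mouse. AppNLGF_p16KO mice (6 libraries, numbers 18 to 23) were homozygous for the App NLGF knock-in and for the p16 knockout, AppNLGF mice (5 libraries, 13 to 17) carried the homozygous knock-in, p16KO mice (6 libraries, 7 to 12) the homozygous knockout, and WT mice (6 libraries, 1 to 6) neither. NLGF stands for familial Alzheimer mutations placed in the mouse's own App gene, so the gene is read from its own promoter and amyloid builds up with age. The strain and the p16 allele are not stated in the sources used here.

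Trem2 is a surface receptor of microglia, the resident macrophages of the brain, that senses lipids, lipoproteins and amyloid. It has no signalling tail of its own and works through adaptors: Tyrobp (DAP12) carries a tyrosine motif that recruits the kinase Syk, and Hcst (DAP10) carries one that recruits PI3-kinase. Downstream, Plcg2 splits a membrane phosphoinositide into second messengers and Inpp5d (SHIP1) removes a phosphate from the lipid that PI3-kinase makes, which dampens the signal. Cd33 is a sialic acid-binding receptor that opposes activation in human myeloid cells, and the mouse protein differs from the human one in its tail. Spi1 encodes PU.1, the ETS-family factor that microglia need. Human variants in several of these genes alter the risk of Alzheimer's disease.

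The coding stretches that hold the adaptors' tyrosine motifs are shown because they are what couples Trem2 to Syk and to PI3-kinase. They were found by translating the longest open reading frame of the GENCODE M21 transcripts (GRCm38), and the capitals mark the tyrosine codons. The Tyrobp stretch covers codons 92 to 106 of 114, and the Hcst stretch covers codons 72 to 75 of 79.
Tyrobp: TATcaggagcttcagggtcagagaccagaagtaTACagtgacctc
Hcst: TACatcaacatg

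The same searches found neither motif in the open reading frames of the 2 coding Trem2 transcripts, of 227 and 249 codons.

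RefSeq promoters (GRCm38.p6, 250 bases before to 50 after the start) were at hand for 6 of the 8 genes, 7 promoters in all, Syk having 2. The windows were searched on both strands for GAGGAA, the core of the PU.1 box, and for AGGAAGT, which overlaps it. GAGGAA stood in a promoter of 4 of the 6 genes (Trem2, Syk, Inpp5d and Cd33) and in 28.3% of all 32851 promoters of that length, and AGGAAGT in 2 of the 6 (Hcst and Inpp5d) and in 9.35% of all promoters. Those shares count promoters and not genes, and for Syk only the promoter at chr13:52596632-52596931 held GAGGAA. The promoters of Trem2 (chr17:48346151-48346450, plus strand) and Cd33 (chr7:43533122-43533421, minus strand) are printed because these genes rose in AppNLGF hippocampus, and that of Inpp5d (chr1:87620062-87620361, plus strand) because it held both words. The RefSeq start of Cd33 lies inside the span that the count table gives for the gene. The capitals mark the matches, which are descriptions of these letters and not binding sites.
Trem2 promoter: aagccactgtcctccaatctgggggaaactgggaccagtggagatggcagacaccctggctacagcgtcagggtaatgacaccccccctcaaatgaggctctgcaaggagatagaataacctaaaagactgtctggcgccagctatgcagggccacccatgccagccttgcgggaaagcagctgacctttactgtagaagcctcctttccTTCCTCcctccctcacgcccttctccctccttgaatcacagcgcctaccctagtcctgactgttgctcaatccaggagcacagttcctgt
Cd33 promoter: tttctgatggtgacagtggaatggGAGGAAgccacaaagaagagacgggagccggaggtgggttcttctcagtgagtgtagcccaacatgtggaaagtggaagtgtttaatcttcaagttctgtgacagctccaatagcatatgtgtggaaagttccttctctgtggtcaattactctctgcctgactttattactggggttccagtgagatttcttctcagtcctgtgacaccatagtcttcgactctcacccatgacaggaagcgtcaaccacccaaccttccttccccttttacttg
Inpp5d promoter: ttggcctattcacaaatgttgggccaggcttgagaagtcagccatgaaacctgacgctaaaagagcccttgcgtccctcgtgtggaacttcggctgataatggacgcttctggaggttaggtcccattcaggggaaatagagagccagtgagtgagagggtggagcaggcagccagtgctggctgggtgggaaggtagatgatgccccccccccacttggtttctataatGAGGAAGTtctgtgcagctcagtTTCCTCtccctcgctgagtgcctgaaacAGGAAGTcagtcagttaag

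Total counts per library ran from 40.7 to 61.2, in units of 1e+06. Marker genes fitted the labelled tissue: the summed level of 5 hippocampal neuron markers was 4454 to 4961 CPM (counts scaled to a library total of 1e+06) in AppNLGF_p16KO libraries, 4213 to 4667 in AppNLGF, 4376 to 4869 in p16KO and 4338 to 4559 in WT. Choroid plexus markers varied widely, from 113 to 5568 CPM over all libraries. App itself had 1553 ± 72.9 CPM in AppNLGF_p16KO, 1572 ± 53.8 in AppNLGF, 1623 ± 57.5 in p16KO and 1666 ± 61.1 in WT (SD; n = 6, 5, 6 and 6). Cdkn2a, the gene behind the p16 label, gave in all 24 reads in AppNLGF_p16KO, 25 in AppNLGF, 4 in p16KO and 17 in WT libraries, and these gene-level reads, which also cover the alternative product Arf, were not lower in AppNLGF_p16KO than in AppNLGF. They do not check the p16 label, and p16KO below names that label. Library AppNLGF_p16KO 21 lay past the limit of the submitters' distance rule as rebuilt here.

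Trem2 and Tyrobp rose with the App knock-in on both backgrounds: both were higher in AppNLGF over WT hippocampus, by 2.01-fold each, and in AppNLGF_p16KO over p16KO hippocampus, by 1.80-fold and 1.85-fold. Cd33 rose by less in AppNLGF, Spi1 was called in the average of both backgrounds, and Syk, Plcg2, Inpp5d and Hcst passed no test of the knock-in in the main fit. Each gene was read from that fit, 1 model of all genes and all 23 libraries (edgeR quasi-likelihood test, two-sided, Benjamini-Hochberg adjustment over the 19423 genes, threshold 0.05). In AppNLGF minus WT, 3 of the 8 genes were called, all higher, where 0.319% of all genes tested were called, and the median log2 fold change was 0.40 over the 8 genes and -0.00104 over all genes. In AppNLGF_p16KO minus p16KO, 2 of the 8 were called, both higher, where 0.247% of all genes were, with medians of 0.30 and 0.00521. CPM ranges did not overlap for 5 of the 8 genes between AppNLGF and WT, as for 1.65% of all genes, and for 2 of the 8 between AppNLGF_p16KO and p16KO, as for 0.443%. In whole tissue, more microglia and more RNA of a gene per microglial cell cannot be told apart.

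**Figure D1:**
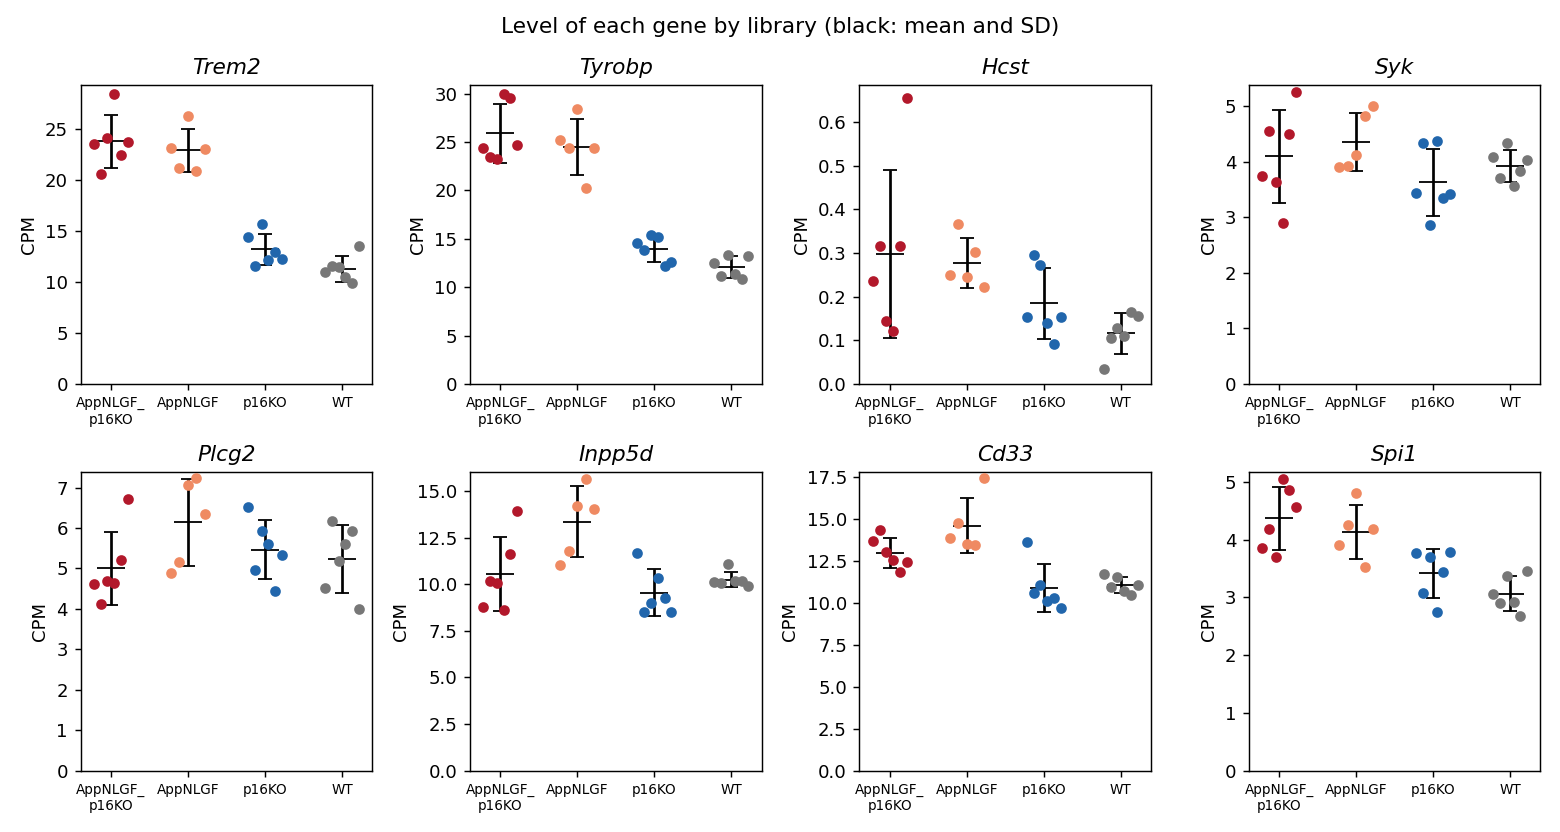
Level of each of the 8 genes in CPM (y axis, from 0) in every library, by genotype (x axis); points are libraries, black bars the mean and SD. The 11 Trem2 values of the App knock-in genotypes, 20.5 to 28.4 CPM, all lie above the 12 others, 9.85 to 15.7 CPM, while Syk and Plcg2 overlap between all genotypes.

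Trem2 (ENSMUSG00000023992) lies on the plus strand of chromosome 17 at 48346401 to 48354147 (GRCm38). Its lowest, median and highest levels were 20.5, 23.6 and 28.4 CPM in AppNLGF_p16KO libraries. AppNLGF libraries 13 to 17 had 23.1, 21.2, 26.2, 20.9 and 23.1 CPM. In p16KO libraries the lowest, median and highest were 11.6, 12.6 and 15.7 CPM, and in WT libraries 9.85, 11.2 and 13.6 CPM. Every library with the knock-in was higher than every library without it, and the 2 knock-in genotypes overlapped with each other. Trem2 rose 2.01-fold in AppNLGF over WT (log2 fold change 1.01 ± 0.0890 SE, adjusted p = 9.21e-08) and 1.80-fold in AppNLGF_p16KO over p16KO (0.85 ± 0.0853, adjusted p = 9.12e-07). It stayed called with each of the 23 libraries left out in turn, with log2 fold changes of 0.95 to 1.06 in AppNLGF minus WT over those fits.

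Tyrobp (ENSMUSG00000030579; chromosome 7, 30413760 to 30417585, plus strand), the adaptor that Trem2 needs at the surface, moved nearly alike. AppNLGF_p16KO libraries had a lowest level of 23.2, a median of 24.6 and a highest of 30.0 CPM, and AppNLGF libraries 13 to 17 had 25.2, 24.4, 28.4, 20.2 and 24.4 CPM. The lowest, median and highest were 12.2, 14.2 and 15.4 CPM in p16KO and 10.8, 12.0 and 13.3 CPM in WT libraries. Again no library with the knock-in fell within the range of those without it. Tyrobp rose 2.01-fold in AppNLGF over WT (log2 1.01 ± 0.0885 SE, adjusted p = 9.21e-08) and 1.85-fold in AppNLGF_p16KO over p16KO (log2 0.89 ± 0.0849, adjusted p = 4.35e-07). Within a library, the ratio of Trem2 to Tyrobp reads was 0.924 ± 0.0954 in AppNLGF_p16KO, 0.938 ± 0.0603 in AppNLGF, 0.947 ± 0.103 in p16KO and 0.937 ± 0.0760 in WT (SD), and these means differed by less than the spread between libraries.

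Hcst (ENSMUSG00000064109; chromosome 7, 30417712 to 30419854, minus strand), the second adaptor, was scarce, with 2 to 38 reads a library. AppNLGF_p16KO libraries had 0.122, 0.276 and 0.654 CPM as lowest, median and highest, and AppNLGF libraries 13 to 17 had 0.249, 0.366, 0.246, 0.303 and 0.221 CPM. The lowest, median and highest were 0.0922, 0.154 and 0.294 CPM in p16KO and 0.0341, 0.118 and 0.165 CPM in WT libraries. AppNLGF libraries all lay above WT libraries, whereas AppNLGF_p16KO overlapped with p16KO. The test did not call it: the log2 fold change was 1.24 ± 0.407 SE in AppNLGF minus WT (adjusted p = 0.330) and 0.68 ± 0.368 in AppNLGF_p16KO minus p16KO (adjusted p = 0.693), with 95% intervals of 0.40 to 2.08 and -0.08 to 1.44. Averaged over both backgrounds it was 0.96 ± 0.274 (adjusted p = 0.126). That average was called in 2 of 11 alternative fits and in none of the 23 that left out 1 library. Hcst and Tyrobp end tail to tail with a gap of 126 bases. The kit keeps strand, but whether the counting used it is not given in the sources used here. The ratio of Tyrobp to Hcst reads was 119 ± 73.8 in AppNLGF_p16KO, 92.1 ± 23.7 in AppNLGF, 87.1 ± 32.2 in p16KO and 139 ± 113 in WT (SD).

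Of the enzymes below the adaptors, none was called for the knock-in in the main fit. Syk (ENSMUSG00000021457; chromosome 13, 52583173 to 52648792, plus strand), the kinase that docks on the Tyrobp motif, had 2.89, 4.12 and 5.27 CPM (lowest, median, highest) in AppNLGF_p16KO and 3.90, 3.92, 4.12, 4.83 and 5.01 CPM in AppNLGF libraries 13 to 17. It had 2.87, 3.43 and 4.38 CPM in p16KO and 3.56, 3.93 and 4.33 CPM in WT. All 4 genotypes overlapped. The log2 fold change was 0.14 ± 0.132 SE in AppNLGF minus WT (adjusted p = 0.845, 95% interval -0.14 to 0.41) and 0.17 ± 0.127 in AppNLGF_p16KO minus p16KO (adjusted p = 0.775, -0.09 to 0.43). Both intervals lie below the change of Trem2.

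Plcg2 (ENSMUSG00000034330; chromosome 8, 117498291 to 117635142, plus strand) had 4.12, 4.67 and 6.71 CPM (lowest, median, highest) in AppNLGF_p16KO and 4.90, 5.15, 7.07, 7.23 and 6.34 CPM in AppNLGF libraries 13 to 17. It had 4.44, 5.46 and 6.51 CPM in p16KO and 4.00, 5.40 and 6.16 CPM in WT. Libraries AppNLGF 15, 16 and 17 and AppNLGF_p16KO 23 were above every WT library, and the rest of their genotypes lay within the range of WT. The log2 fold change was 0.22 ± 0.138 SE in AppNLGF minus WT (adjusted p = 0.718) and -0.13 ± 0.132 in AppNLGF_p16KO minus p16KO (adjusted p = 0.844).

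Inpp5d (ENSMUSG00000026288; chromosome 1, 87620312 to 87720507, plus strand), the phosphatase that opposes PI3-kinase, had 8.63, 10.1 and 13.9 CPM (lowest, median, highest) in AppNLGF_p16KO and 11.0, 11.8, 14.2, 15.7 and 14.1 CPM in AppNLGF libraries 13 to 17. It had 8.48, 9.14 and 11.7 CPM in p16KO and 9.93, 10.1 and 11.1 CPM in WT. The same 4 libraries were the highest here too, WT libraries lay close together, and AppNLGF overlapped with WT by a narrow margin. The log2 fold change was 0.37 ± 0.111 SE in AppNLGF minus WT (adjusted p = 0.255) and 0.14 ± 0.107 in AppNLGF_p16KO minus p16KO (adjusted p = 0.779). Averaged over both backgrounds it was 0.25 ± 0.0770 (adjusted p = 0.162). That average was called in 1 of 11 alternative fits and in none of the 23 that left out 1 library.

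Cd33 (ENSMUSG00000004609; chromosome 7, 43524216 to 43544428, minus strand) had 11.9, 12.8 and 14.3 CPM (lowest, median, highest) in AppNLGF_p16KO and 13.8, 14.8, 13.5, 13.5 and 17.4 CPM in AppNLGF libraries 13 to 17. It had 9.68, 10.4 and 13.6 CPM in p16KO and 10.5, 11.0 and 11.7 CPM in WT. AppNLGF lay wholly above WT, and AppNLGF_p16KO overlapped with p16KO only through library p16KO 7. Cd33 rose in AppNLGF over WT by a log2 fold change of 0.38 ± 0.0808 SE (adjusted p = 0.0263). In AppNLGF_p16KO minus p16KO the log2 fold change was 0.25 ± 0.0774 (adjusted p = 0.304). Single libraries decided both calls: the first was lost without any 1 of 6 libraries (WT 2, 4, 5 or 6, AppNLGF 14 or 17; adjusted p of 0.0528 to 0.123), and the second was gained without p16KO 7 (log2 0.33, adjusted p = 0.0468). Library p16KO 7 also held the highest summed T and NK cell markers, 7.13 CPM against 0.583 to 3.04 CPM in the others, and 2.00 CPM of neutrophil markers; their part in its Cd33 level was not tested. The ratio of Trem2 to Cd33 reads was 1.84 ± 0.269 in AppNLGF_p16KO, 1.58 ± 0.237 in AppNLGF, 1.22 ± 0.128 in p16KO and 1.02 ± 0.109 in WT (SD), and each knock-in genotype lay above its own control in every library.

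**Figure D2:**
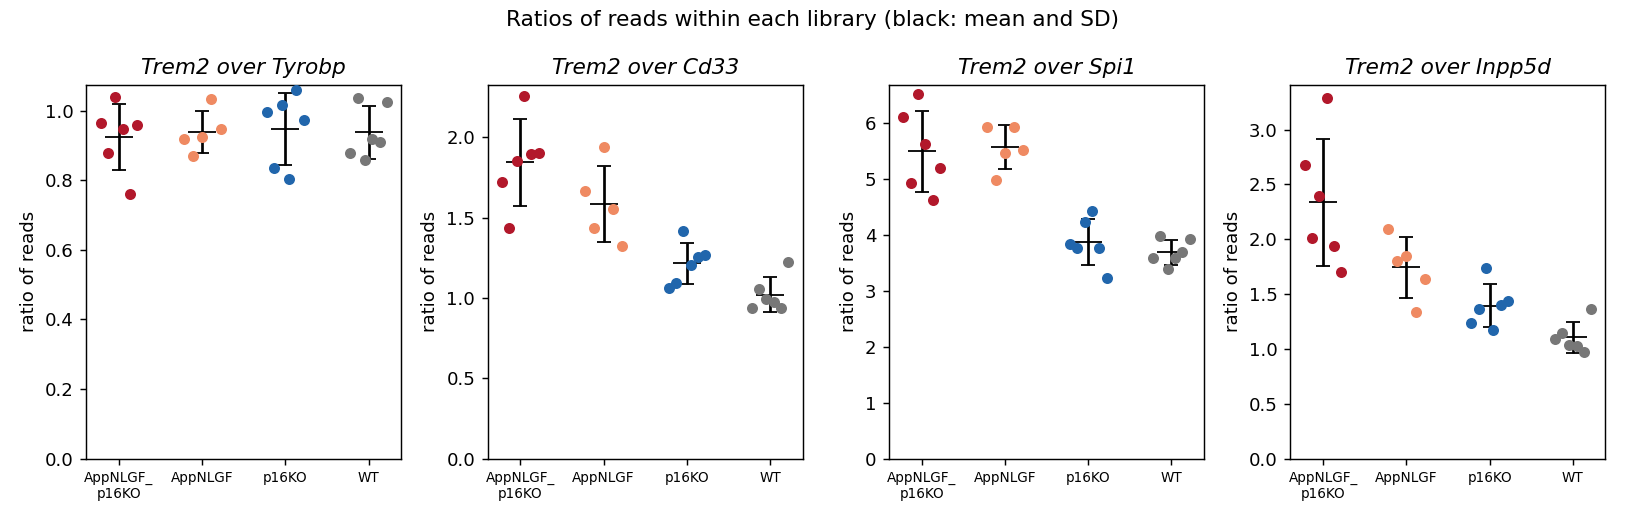
Ratio of Trem2 reads to Tyrobp, Cd33, Spi1 and Inpp5d reads (y axes, from 0) in every library, by genotype (x axis), with mean and SD in black. The ratio to Tyrobp is 0.924 to 0.947 on average in all 4 genotypes, while that to Cd33 is 1.84 and 1.58 with the knock-in and 1.22 and 1.02 without it.

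Spi1 (ENSMUSG00000002111; chromosome 2, 91082390 to 91115756, plus strand), the myeloid transcription factor, had 3.71, 4.37 and 5.06 CPM (lowest, median, highest) in AppNLGF_p16KO and 3.90, 4.25, 4.81, 3.53 and 4.18 CPM in AppNLGF libraries 13 to 17. It had 2.75, 3.57 and 3.79 CPM in p16KO and 2.67, 2.99 and 3.45 CPM in WT. AppNLGF lay above WT by a narrow gap, and the genotypes on the p16KO background overlapped. The log2 fold change was 0.42 ± 0.111 SE in AppNLGF minus WT (adjusted p = 0.142; DESeq2 called it, adjusted p = 0.0332) and 0.35 ± 0.106 in AppNLGF_p16KO minus p16KO (adjusted p = 0.290). Averaged over both backgrounds, Spi1 rose by 0.39 ± 0.0768 (adjusted p = 0.00826, higher than the control mean in 11 of 11 libraries). The call was lost (0.37, adjusted p = 0.0763) without AppNLGF 15, 16 and 17 and AppNLGF_p16KO 23, an omission chosen after seeing the data that left 2 AppNLGF libraries. That was not the only loss: 8 of 11 alternative fits called it, with log2 fold changes of 0.12 to 0.39 and adjusted p of up to 0.181. All 23 fits that left out 1 library called it. In that average 4 of the 8 genes were called, all higher, where 0.793% of all genes were: Trem2, Tyrobp, Cd33 and Spi1.

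**Figure D3:**
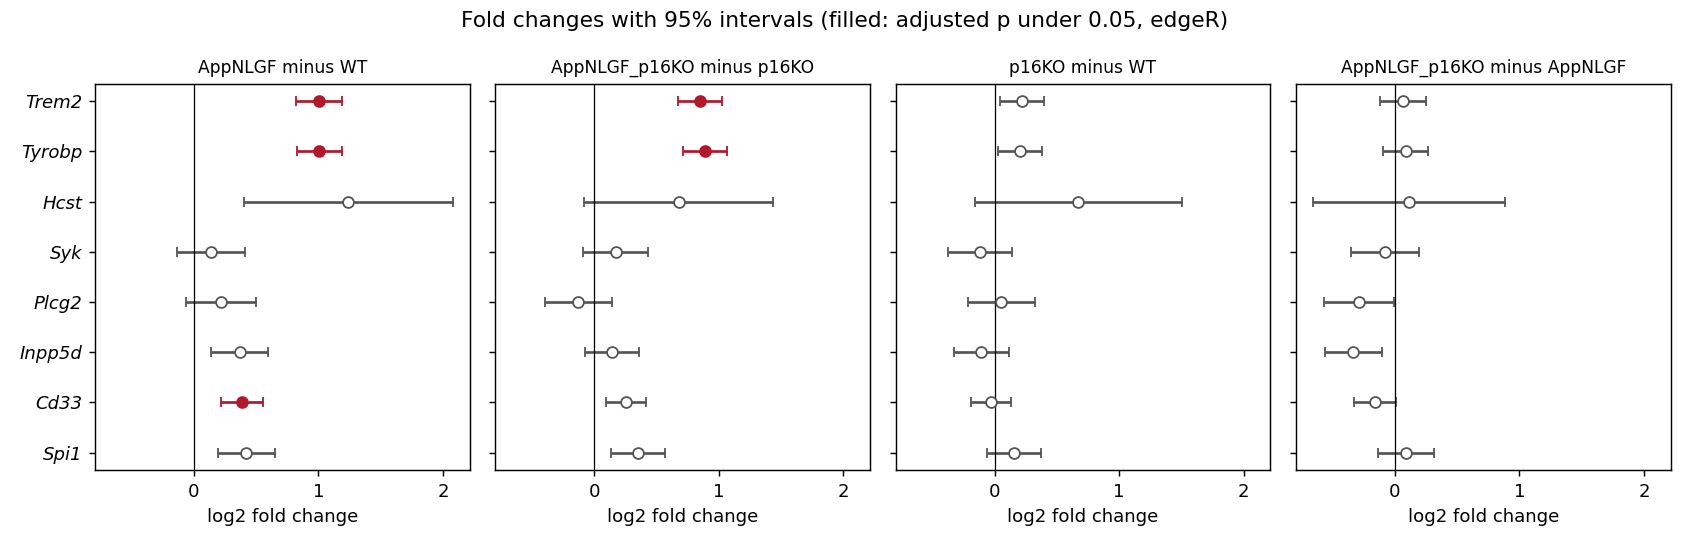
Log2 fold change (x axis) of each gene (rows) in the 4 comparisons of neighbouring genotypes, with 95% intervals; filled points passed an adjusted p of 0.05 in edgeR. Trem2, Tyrobp and Cd33 are filled in AppNLGF minus WT, Trem2 and Tyrobp in AppNLGF_p16KO minus p16KO, and no gene in the comparisons of p16.

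None of the 8 genes was called for the p16KO label on either background, and CPM ranges overlapped for all 8. Most genes overlapped too: ranges did not overlap for 1.86% of all genes between p16KO and WT and for 1.13% between AppNLGF_p16KO and AppNLGF. In p16KO minus WT 0 of 8 were called where 0.309% of all genes were. An unadjusted p under 0.05 was found for 3071 of all 19423 genes and for 2 of the 8. Those were Trem2 (log2 fold change 0.22 ± 0.0857 SE, adjusted p = 0.215) and Tyrobp (0.21 ± 0.0852, adjusted p = 0.239), each higher than the WT mean in 6 of 6 libraries with overlapping ranges. In AppNLGF_p16KO minus AppNLGF 0 of 8 were called where 0.0309% of all genes were. Here 4570 of all 19423 genes had an unadjusted p under 0.05, and so did 2 of the 8: Plcg2 (-0.29 ± 0.138, adjusted p = 0.207) and Inpp5d (-0.33 ± 0.111, adjusted p = 0.116). Library AppNLGF_p16KO 23 decided the calls: without it both were called lower, Plcg2 by 0.39 (adjusted p = 0.0383) and Inpp5d by 0.43 (adjusted p = 0.00780) on the log2 scale. Genes called over the whole table then numbered 4155 in place of 6, where the main fit tested 19423. Calls in that fit were thus not particular to Plcg2 and Inpp5d. Averaged over both App backgrounds, 0 of 8 were called where 13.0% of all genes were, with Inpp5d nearest (-0.22 ± 0.0770, adjusted p = 0.0572). DESeq2 called none of the 8 in p16KO minus WT and gave no adjusted p for them in AppNLGF_p16KO minus AppNLGF. It called Inpp5d in the average (-0.23, adjusted p = 0.0314), where it called 17.4% of all genes.

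The response to the knock-in was not shown to depend on p16. The interaction called 0 of the 8 genes and 0% of all genes, with 1021 genes and none of the 8 at an unadjusted p under 0.05, and DESeq2 called 1 gene. The interaction on the log2 scale was -0.15 for Trem2 (95% interval -0.41 to 0.10), -0.12 for Tyrobp (-0.37 to 0.14) and -0.34 for Plcg2 (-0.74 to 0.05). A p that misses the threshold does not show that the backgrounds respond alike.

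Homeostatic microglial markers were also higher with the knock-in. Their sum over 15 genes was 564 to 613 CPM in AppNLGF_p16KO against 472 to 506 CPM in p16KO, and 535 to 620 CPM in AppNLGF against 435 to 498 CPM in WT. In AppNLGF minus WT 14 of the 15 fold changes were positive, and Olfml3 was among the genes called higher. Trem2 and Cd33 are not among the 15 genes, and their levels were expressed as a percentage of that sum. Trem2 was at 4.08% ± 0.427 in AppNLGF_p16KO, 3.93% ± 0.291 in AppNLGF, 2.72% ± 0.302 in p16KO and 2.40% ± 0.171 in WT (SD), and the ranges with and without the knock-in did not overlap. Cd33 was at 2.23% ± 0.206 in AppNLGF_p16KO, 2.51% ± 0.204 in AppNLGF, 2.25% ± 0.319 in p16KO and 2.36% ± 0.0766 in WT, with overlap. Border macrophage markers summed to 7.52 to 11.1 CPM in AppNLGF_p16KO and 6.97 to 14.3 CPM in AppNLGF, against 5.82 to 9.73 CPM in p16KO and 6.12 to 13.2 CPM in WT, and none of the 7 was called in any comparison of neighbouring genotypes.

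When counts were scaled to those 15 markers in place of all genes, which shifted the median gene by -0.27 in AppNLGF minus WT and by -0.25 in AppNLGF_p16KO minus p16KO, Trem2 and Tyrobp stayed called on both backgrounds. The log2 fold change of Trem2 was then 0.74 (adjusted p = 2.54e-05) and 0.60 (adjusted p = 0.000194), and that of Tyrobp 0.74 and 0.64. Cd33 was no longer called, at 0.11 (adjusted p = 0.315) and -0.00323. Syk turned to -0.13 and -0.08 and Inpp5d to 0.10 and -0.12, none of them called. Plcg2 was -0.06 and -0.38, and the second was called lower (adjusted p = 0.0355). On this scale 8840 and 8891 genes were called over the table, nearly all lower, so a gene called lower here is set against microglial markers and not against the tissue.

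**Figure D4:**
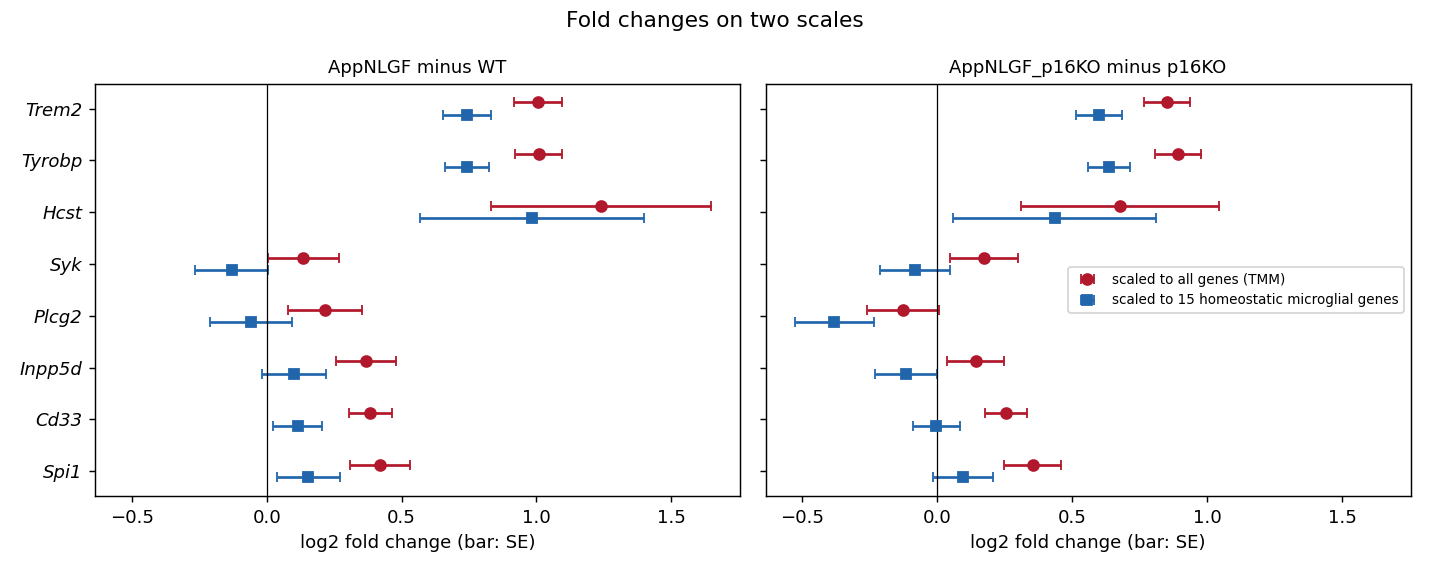
Log2 fold change of each gene with its SE (x axis) in the comparisons of the knock-in on both backgrounds, scaled to all genes (red circles) and to 15 homeostatic microglial genes (blue squares). Trem2 and Tyrobp stay at 0.60 to 0.74 on the microglial scale, and Cd33 drops to 0.11 and -0.00323.

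Levels were set against each other per kilobase. On the union of GENCODE M21 exons, Tyrobp stood far above the rest at 38.8 ± 4.58 CPM per kb in AppNLGF_p16KO, 36.7 ± 4.36 in AppNLGF, 20.9 ± 1.99 in p16KO and 18.1 ± 1.65 in WT (SD). Trem2 followed with 4.81 ± 0.525 CPM per kb in AppNLGF_p16KO, 4.63 ± 0.430 in AppNLGF, 2.67 ± 0.316 in p16KO and 2.29 ± 0.257 in WT. In AppNLGF, Cd33 (1.88 ± 0.213 CPM per kb), Inpp5d (1.76 ± 0.250), Spi1 (1.53 ± 0.176) and Plcg2 (1.43 ± 0.250) did not differ from their neighbours in this order beyond their spread, and Syk (0.465 ± 0.0561) and Hcst (0.384 ± 0.0806) were lowest. The gap between adaptor and receptor and the order of the other genes depend on the length used. Per kb of the deposited median transcript length, AppNLGF had 42.6 for Tyrobp and 21.4 for Trem2. On that length Cd33 had 7.78, Spi1 7.14, Inpp5d 3.46, Syk 1.46, Plcg2 1.43 and Hcst 0.647.

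Some of the 8 genes varied together within genotypes. Over 23 libraries, after the genotype mean was taken off log2 CPM, Trem2, Tyrobp and Spi1 varied together (Pearson r of 0.59 for Trem2 with Tyrobp, 0.61 for Trem2 with Spi1 and 0.58 for Tyrobp with Spi1), and Inpp5d varied with Plcg2 (0.70) and Syk (0.61), while Syk and Plcg2 had 0.21. Trem2 and Syk ran opposite (-0.54), and the median over the 28 pairs was 0.03. These are descriptions, since all genes of a library share its depth, dissection and RNA quality. Libraries differed in how the level of a gene leaned on transcript length, measured as the slope of log2 CPM deviations per doubling of the deposited median length. That slope ran from 0.00664 to 0.0509 in WT and from -0.0346 to 0.00582 in p16KO libraries, without overlap. It was 0.0130 in library AppNLGF_p16KO 23, the highest of its genotype. The slope had a median of -0.0354 in AppNLGF_p16KO, 0.00866 in AppNLGF, -0.0117 in p16KO and 0.0324 in WT libraries. Within genotypes it went with Inpp5d (r = 0.67), Syk (0.62) and Plcg2 (0.59), whose transcripts are long, and ran against Tyrobp (-0.53), Trem2 (-0.44) and Spi1 (-0.40), whose transcripts are shorter. Hcst, with the shortest of all, went with it nonetheless (0.52), and Cd33 did neither (0.03). The part of the slope in the results was not tested beyond the fit that follows. With the slope as a term, chosen after seeing the data, Trem2 and Tyrobp stayed called on both backgrounds, Inpp5d was called higher in AppNLGF minus WT (0.49, adjusted p = 0.0110), and its average p16 effect was 0.04 in place of -0.22. The slope came from these same counts and went with the p16KO label, so that fit cannot tell slope and label apart.

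**Figure D5:**
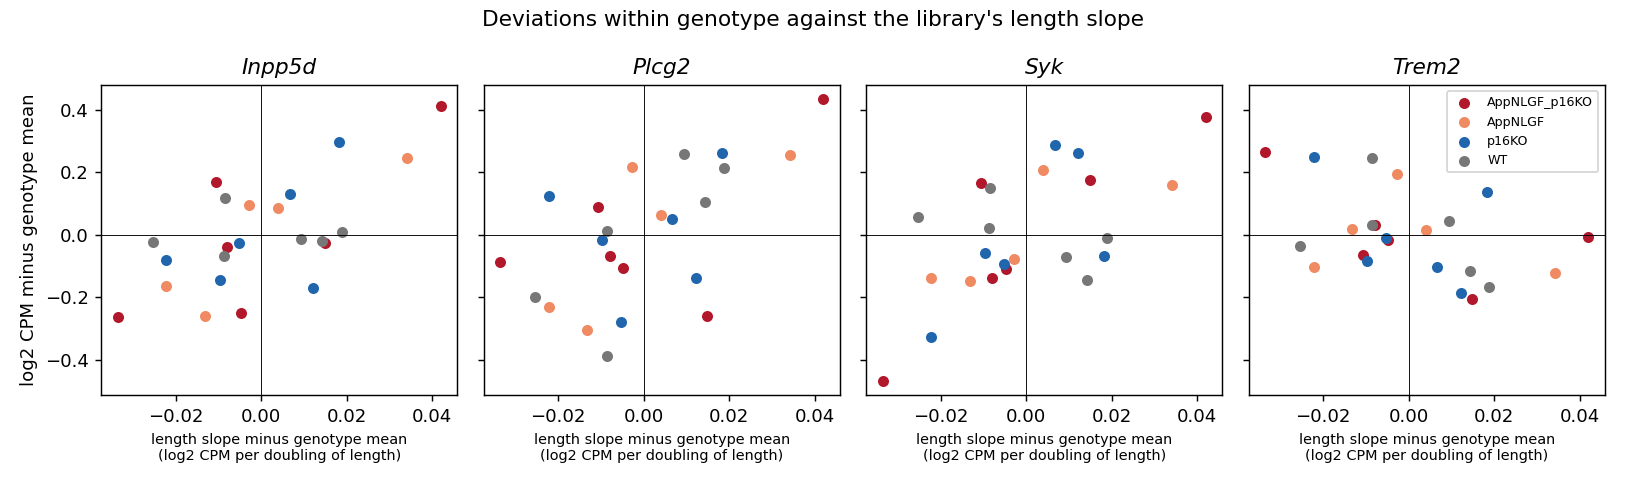
Deviation of log2 CPM from the genotype mean (y axis) against the library's length slope, also less its genotype mean (x axis), for Inpp5d, Plcg2, Syk and Trem2; points are the 23 libraries, coloured by genotype. Inpp5d, Plcg2 and Syk rise with the slope (r = 0.67, 0.59 and 0.62) and Trem2 falls (r = -0.44).

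The genes outside the set that varied most like Trem2 within genotypes over the 23 libraries were Tnfaip8l2 (r = 0.80), Gbx1 (0.76), Ncf4 (0.73), Tgfbr2 (0.72), Nkiras2 (0.70) and Tap2 (0.70).

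Genes that surround the receptor were read from lists. Over all genes tested, 0.319% were called in AppNLGF minus WT and 0.247% in AppNLGF_p16KO minus p16KO. Of 4 Trem2 ligands none was called for the knock-in; Apoe, the main brain apolipoprotein, had 1584 ± 155 CPM in AppNLGF_p16KO, 1484 ± 99.9 in AppNLGF, 1557 ± 99.8 in p16KO and 1309 ± 59.0 in WT, with a log2 fold change of 0.17 ± 0.0642 SE in AppNLGF minus WT (adjusted p = 0.450). Of 9 genes of Trem2 shedding and intramembrane cleavage none was called, among them the sheddase Adam10 (-0.11 ± 0.0596, adjusted p = 0.652). Neither list gave a called gene in AppNLGF_p16KO minus p16KO.

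Of 14 Trem family and Tyrobp-coupled receptors only 4 had reads enough to be tested, and 1 was called in AppNLGF minus WT. That was Cd300c2, an activating receptor, with 2.92 ± 0.157 CPM in AppNLGF_p16KO, 3.29 ± 0.278 in AppNLGF, 2.31 ± 0.365 in p16KO and 2.16 ± 0.283 in WT (log2 0.59 ± 0.113 SE, adjusted p = 0.00956). Of 39 signalling genes downstream of the adaptors 3 rose in AppNLGF over WT: Ptpn6 (SHP-1), the phosphatase that inhibitory receptors recruit (0.80 ± 0.114, adjusted p = 0.000450), Lat2, a membrane scaffold (0.70 ± 0.136, adjusted p = 0.0118), and Pik3cg, a PI3-kinase subunit (0.44 ± 0.0961, adjusted p = 0.0328). The median over the 39 was 0.03. In AppNLGF_p16KO minus p16KO none of the 39 was called, and Ptpn6 stood at 0.43 ± 0.109 (adjusted p = 0.154).

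Of 13 inhibitory myeloid receptors tested besides Cd33, 2 rose in AppNLGF over WT, the collagen receptor Lair1 (0.39 ± 0.0833 SE, adjusted p = 0.0292) and Lilrb4a (2.18 ± 0.449, adjusted p = 0.0214), and the median was 0.56. Lilrb4a was scarce, with 0.191 ± 0.121 CPM in AppNLGF_p16KO, 0.458 ± 0.141 in AppNLGF, 0.0976 ± 0.0751 in p16KO and 0.0974 ± 0.0507 in WT. None of the 13 was called in AppNLGF_p16KO minus p16KO. None of the 5 Ms4a genes was called on either background; Ms4a6b, the most abundant, had 0.09 ± 0.215 in AppNLGF minus WT (adjusted p = 0.965). Of 13 microglial transcription factors besides Spi1, Irf8, a partner of PU.1, rose in AppNLGF over WT (0.78 ± 0.113, adjusted p = 0.000493) and had 0.37 ± 0.108 in AppNLGF_p16KO minus p16KO (adjusted p = 0.248). The difference between backgrounds was called for none of these genes.

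Microglial genes known to be induced around plaques made up the last list. Of 16, 7 rose in AppNLGF over WT and 6 in AppNLGF_p16KO over p16KO, with medians over the list of 0.40 and 0.36. Cst7, a cystatin, had 4.66 ± 1.11 CPM in AppNLGF_p16KO and 0.130 ± 0.0988 in p16KO, and 5.97 ± 1.58 in AppNLGF and 0.177 ± 0.105 in WT (SD). Its log2 fold change was 5.12 ± 0.340 SE in AppNLGF_p16KO minus p16KO (adjusted p = 2.82e-09) and 5.04 ± 0.332 in AppNLGF minus WT (adjusted p = 2.30e-09). The beta-glucan receptor Clec7a, the integrin Itgax and the chemokine Ccl6 were called in both. In the average p16 effect, where 13.0% of all genes were called, 1 of the 4 ligands (Apoe, 0.17 ± 0.0445 SE, adjusted p = 0.0183) and 4 of the 39 signalling genes were called: Grb2 was higher, and Itpr2, Prkcb and Malt1 were lower. No gene of the other lists around the receptor was called there. Of the 15 homeostatic microglial markers, 2 were called higher, Aif1 and Tmem119. With the length slope as a term, 6 genes were called for that effect over the whole table in place of 2522. That fit cannot tell the slope from the p16KO label, since the slope did not overlap between p16KO and WT libraries. These lists were drawn up with earlier results of these data known.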

How the data were processed

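Poly-A RNA of 23 mouse hippocampi was measured in 4 genotypes. The labels' protocols give stranded libraries read as 50-base single ends. According to the submitters' processing notes, cutadapt 4.2 did the trimming, Bowtie2 2.3.5 took out ribosomal RNA, and STAR 2.7.10b mapped what was left onto GRCm38; a later mouse build and DESeq2 1.45.3 are named as well. The authors deposited raw counts, without normalisation: reads with a single alignment and a single gene of Ensembl release 102, per the submitters' processing notes. The strand setting of the counting is not given in the sources used here. The table also holds the authors' deposited median transcript length of each gene, in bases, used as deposited. Of 37060 genes shared with GENCODE M21, 36795 had the same GRCm38 coordinates.

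All 23 columns of counts were used. Genes kept by filterByExpr (minimum 10, 4 genotypes) were tested in R 4.3.3 with edgeR 4.0.16 (TMM normalisation, robust quasi-likelihood F test, 1 model), with Benjamini-Hochberg adjustment over 19423 genes. CPM are counts scaled to a library total of 1e+06. Total counts per library were 40.7 to 61.2, with a median of 55.1, in units of 1e+06. The protocols name no molecular identifiers, and p-values measure the spread between mice. No 2 libraries held the same values. Members and lists were chosen with earlier results of these data known. Named genes were the 8 members, the called genes of each list with the smallest p in either knock-in comparison (at most 4; in lists with no call, 1 or 2 abundant ones) and the 6 named genes nearest to Trem2. Some genes of the lists are not reported here by name. The procedure was tested on simulated data. Alternatives were DESeq2 1.42.0, RLE size factors, other count filters, no robust dispersion, a threshold of 0.01, fits of the compared groups alone, sex as a term, 1 surrogate variable (sva 3.50.0), scaling to homeostatic microglial genes, omission of each library or of those past the submitters' distance limit and, chosen after seeing the data, a length slope term and omission of 4 libraries. Sex was set from Xist reads, which were high in some libraries and low in others of every genotype.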

Additional observations from a re-analysis of the deposited data

Results flagged for a closer look

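In 32 groups of values (8 genes in 4 genotypes), 3 had a library set apart from the others of its genotype by a gap beyond Dixon's 95% limit, and chance sets apart about 1 group in 20. Hcst in library AppNLGF_p16KO 23 was at 0.654 CPM, above the 5 others. Inpp5d in library WT 3 was at 11.1 CPM, above 5 WT libraries that lay close together. Cd33 in library p16KO 7 was at 13.6 CPM, above the other p16KO libraries. No explanation was tested.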

How the results depend on the processing

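Trem2 and Tyrobp kept their calls in both comparisons of the knock-in under every alternative run, with log2 fold changes of 0.74 to 1.07 and 0.60 to 0.92. Over all 8 genes and 7 comparisons, alternatives other than leaving out 1 library gave 607 fold changes with the same direction and call, 25 reversed, 9 newly called and 6 lost, and leaving out 1 library gave 1265, 10, 7 and 6. Depth limits Hcst, at 2 to 38 reads a library. No paired analysis was possible because no library number occurs in more than 1 genotype. The cause of the changes below was not tested.

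Scaled to homeostatic microglial genes, the log2 fold change was -0.13 for Syk and -0.05711 for Plcg2 in AppNLGF minus WT. It was -0.08161 for Syk, -0.12 for Inpp5d and -0.003235 for Cd33 in AppNLGF_p16KO minus p16KO, and -0.11 for Syk, -0.22 for Plcg2 and -0.00722 for Inpp5d in the average App effect. Omitting AppNLGF 15, 16, 17 and AppNLGF_p16KO 23 left 2 AppNLGF libraries, and since Plcg2 was high in all 4, a lower value for it followed from the choice. Without them, it was -0.01423 for Syk and -0.06803 for Plcg2 in AppNLGF minus WT, -0.44 for Hcst in AppNLGF_p16KO minus AppNLGF and -0.15 for Plcg2 in the average App effect. With the length slope as a term, p16KO minus WT gave 0.17 for Syk (0.1667) and for Inpp5d (0.1674), and AppNLGF_p16KO minus AppNLGF gave -0.07257 for Trem2, -0.07293 for Tyrobp, 0.18 for Syk and -0.04272 for Spi1. The average p16 effect was then -0.001022 for Trem2, -0.02074 for Tyrobp, 0.1735 for Syk, 0.1849 for Plcg2, 0.04377 for Inpp5d and -0.01706 for Spi1. Without the library past the distance limit, Syk had 0.003851 in AppNLGF_p16KO minus AppNLGF.

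Leaving out 1 library in turn, the sign changed within the range for Plcg2 (-0.0193 to 0.1085) and Cd33 (-0.1022 to 0.000172) in p16KO minus WT, for Syk (-0.1624 to 0.003851) and Hcst (-0.2846 to 0.2742) in AppNLGF_p16KO minus AppNLGF, for Syk in the interaction (-0.04538 to 0.1208) and for Plcg2 in the average App effect (-0.006283 to 0.08127).

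The number of genes called over the whole table moved more. AppNLGF minus WT (62) had 153 with DESeq2, 8840 on the microglial scale, 118 with the length slope and 31 without the 4 libraries. AppNLGF_p16KO minus p16KO (48) had 22 at an adjusted p of 0.01, 101 with DESeq2, 19 with the compared groups alone, 8891 on the microglial scale, 29 without the library past the distance limit and 24 with the length slope. For p16KO minus WT (60) the numbers were 6 at 0.01, 469 with DESeq2, 356 with the groups alone, 13 on the microglial scale, 189 under the distance limit, 9 with the length slope and 214 without the 4 libraries. AppNLGF_p16KO minus AppNLGF (6) had 3 at 0.01, 676 with DESeq2, 17 with no count filter, and 0 with the groups alone, the length slope or without the 4 libraries. The interaction (0) had 1 with DESeq2. The average App effect (154) had 89 at 0.01, 285 with DESeq2 and 11870 on the microglial scale. The average p16 effect (2522) had 167 at 0.01, 1364 with no filter, 699 on the microglial scale, 1409 under the distance limit, 6 with the length slope and 407 without the 4 libraries. Leaving out 1 library gave 47 to 72, 29 to 61, 7 to 239, 2 to 4155, 0 to 0, 110 to 159 and 762 to 5116 called genes in the 7 comparisons in that order.

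Of the 8 genes, the number called in the average p16 effect (0) was 1 with DESeq2, with sex as a term and with 1 surrogate variable, and 0 to 1 when 1 library was left out; in AppNLGF_p16KO minus AppNLGF it was 0 to 2.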
